A study of Mus musculus with 12 samples.

Results

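Interferon-stimulated genes are the genes that cells switch on when an interferon reaches them. A list of 33 such genes, chosen by gene name, was followed gene by gene and tumor by tumor in mammary tumors of mice fed 1 of 3 diets. All 33 were among the 54532 genes listed in the count and FPKM tables, and all 33 had enough reads to be among the 15504 genes tested. The 12 tumors came from MMTV-Neu mice, in which the MMTV promoter drives the Neu (ErbB2) oncogene in the mammary epithelium, so every group carried this transgene. The 4 control tumors came from mice on control diet, 4 from mice given MSU-42011 and 4 from mice given bexarotene, each agonist at 100 mg per kg of diet and, from the study's methods, for 10 days. Both compounds activate the retinoid X receptor (RXR), a nuclear receptor, and the design asks how each changed the tumor transcriptome against control diet and against the other. Each library was made from polyA-enriched RNA of a piece of whole tumor, and the labels give neither the age of the mice nor a batch or date. Each group held 4 mice, although the labels do not tie tumors to mice. The edgeR p-values weigh a difference between groups against the spread between these samples within groups.

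Type I interferons bind the receptor IFNAR1/IFNAR2, and the kinases JAK1 and TYK2 then phosphorylate STAT2. With IRF9 it is part of a complex that binds the interferon-stimulated response element (ISRE) in the promoters of target genes. Interferon gamma acts mainly through another element, the gamma-activated site (GAS). The products of the target genes bind or degrade viral RNA, sense nucleic acids, block virus release or limit the response, and in tumors they can be made by cancer cells and by infiltrating immune cells.

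The promoters of the members were read first, since they show whether the genes share this element. RefSeq promoter windows (build GRCm38.p6, 250 bases before to 50 bases after a transcription start) were matched by symbol for 22 of the 33 members, with 25 windows. Both strands were searched for the ISRE core GAAANNGAAA, which can overlap itself, and for the GAS core TTCNNNGAA. The ISRE core was present in 14 of the 22 members (63.6%), and in 3.99% of the 27025 genes with such windows. The GAS core was present in 4 of the 22 (18.2%) and in 9.55% of all genes. In *Bst2* a GAS core at -136 to -128 overlapped the first of its ISRE cores. A match is a run of letters, not a measured binding site. The 6 stretches that follow come from an ISG15 gene, 3 IFIT genes, an OAS gene and a tetherin gene. Each of these genes had at least 2 ISRE core matches in its window, as did *Gbp3*, which is not shown. Whether the core goes with the differences between diets was not tested. Each stretch shows the ISRE core matches in capitals with 15 bases on either side, 5′ to 3′ along the gene. The *Oas1a* stretch instead ends at the base before the start.
Isg15 (chr4:156200860-156200911, minus strand): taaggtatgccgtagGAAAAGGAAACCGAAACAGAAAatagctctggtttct
Ifit1 (chr19:34640770-34640828, plus strand): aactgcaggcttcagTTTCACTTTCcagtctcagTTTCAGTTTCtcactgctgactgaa
Ifit3 (chr19:34583358-34583431, plus strand): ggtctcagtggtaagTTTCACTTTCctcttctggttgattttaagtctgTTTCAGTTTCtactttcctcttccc
Ifit3b (chr19:34607754-34607827, plus strand): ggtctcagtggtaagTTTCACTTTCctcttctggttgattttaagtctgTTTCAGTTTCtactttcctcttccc
Oas1a (chr5:120907526-120907560, minus strand): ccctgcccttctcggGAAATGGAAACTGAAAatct
Bst2 (chr8:71537572-71537617, minus strand): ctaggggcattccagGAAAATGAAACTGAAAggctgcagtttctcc
The *Isg15* stretch held 3 overlapping cores in a row, from -78 to -57 relative to the start. In *Ifit1*, *Ifit3* and *Ifit3b* the core was read on the opposite strand and appears as its reverse complement, and each gene had 2 copies. The stretches of *Ifit3* and *Ifit3b* were identical base for base. *Cmpk2*, the member with the smallest p between the 2 agonists, had no match to either core in its window, and its last 60 bases before the start are given for contrast.
Cmpk2 (chr12:26469155-26469214, plus strand): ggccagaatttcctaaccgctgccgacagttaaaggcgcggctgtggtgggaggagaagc

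**Figure D1:**
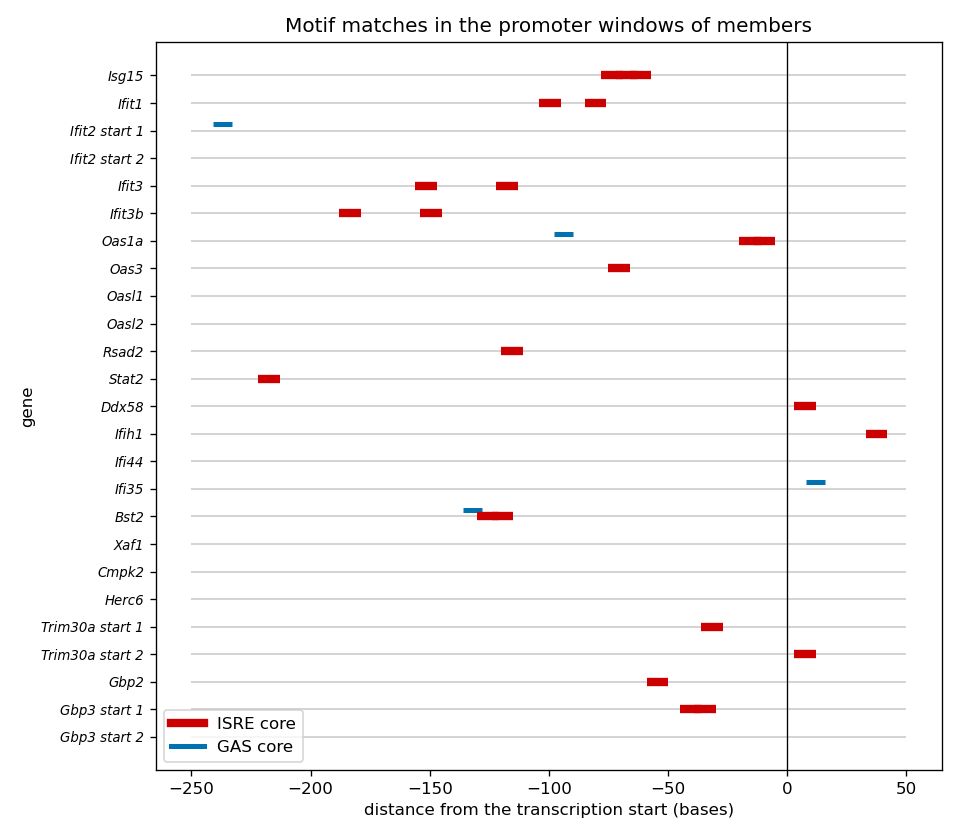
Matches to the ISRE core (red) and the GAS core (blue) in the promoter windows of the 22 members with a RefSeq window, by distance in bases from the transcription start (black line); each gray line is 1 of 25 windows. The ISRE core was found in 14 of the 22 members, mostly before the start, and *Isg15* held 3 in a row.

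The members lie in several clusters of related genes (GRCm38). The 4 IFIT genes lie on chromosome 19 between 34550694 and 34613401, the *Oas1a*, *Oas1b*, *Oas2* and *Oas3* genes on chromosome 5 between 120730333 and 120907521, and *Oasl1* and *Oasl2* on the same chromosome between 114896936 and 114937915. *Rsad2* and *Cmpk2* are neighbors on chromosome 12 between 26442746 and 26479837, and *Gbp3* and *Gbp2* on chromosome 3 between 142560026 and 142638008.

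Counts of 16583413 to 25925027 reads per tumor were deposited, so 3 reads, taken as the limit of detection, amount to 0.116 to 0.181 CPM. CPM are counts scaled to the library total, here with TMM factors that correct for differences in library composition, and they compare 1 gene between tumors, while FPKM are also divided by gene length and compare genes. The log2 CPM of bexarotene tumor 1 had a median correlation of 0.915 with the other tumors, against at least 0.961 for the rest. Summed fibroblast markers were at 10300 CPM in it and at 65.2 to 780 CPM in the other 11, summed leukocyte markers at 350 CPM against 43.3 to 121 CPM, and summed mammary epithelial markers at 2680 CPM against 3990 to 5460 CPM. The counts and medians of members in both comparisons with bexarotene, and those of the pathway and immune marker lists against control diet, are therefore also given without that tumor. Summed skeletal muscle markers were at 236 CPM in bexarotene tumor 1 and at 116 CPM in control tumor 1, against 1.26 to 3.5 CPM in the others. The part of this tissue in the levels of the members was not tested. In bulk tumors fewer cells of a type and less RNA per cell cannot be told apart.

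All 33 members had reads in every tumor, with 3 to 10491 reads per gene and tumor. On the FPKM scale *Ifi27* was the most abundant member, at 517 ± 103 FPKM in control tumors (SD, n = 4), followed by *Bst2* at 216 ± 98.5 and *Rtp4* at 72.9 ± 31.1. *Oas3* was the least abundant, at 1.59 ± 0.903 FPKM. The members reached from the 21.8th to the 98.8th percentile of the genes tested in control tumors. In FPKM *Oasl2*, *Isg15*, *Ifi35* and *Ddx58* followed with control means of 46.9, 41.4, 39.4 and 39.4, within the SD of each other.

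The control tumors differed widely from each other. The median member, as log2(CPM + 0.5) relative to the control mean, stood at 0.51, -0.64, -0.14 and 0.33 in control tumors 1 to 4, at -0.13, -0.090, -0.23 and 0.035 with MSU-42011 and at -0.48, -0.61, -0.16 and -0.87 with bexarotene. Averaged over tumors this was 0.017 ± 0.52 for control, -0.10 ± 0.11 for MSU-42011 and -0.53 ± 0.29 for bexarotene (SD, n = 4 tumors). Of the 33 members, 19 were highest of all 12 tumors in control tumor 1 and 11 in control tumor 4, while 10 were lowest in control tumor 2 and 10 in bexarotene tumor 4. Over all genes tested, control tumors 1 and 4 held the highest value for 5.92% and 4.10%.

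**Figure D2:**
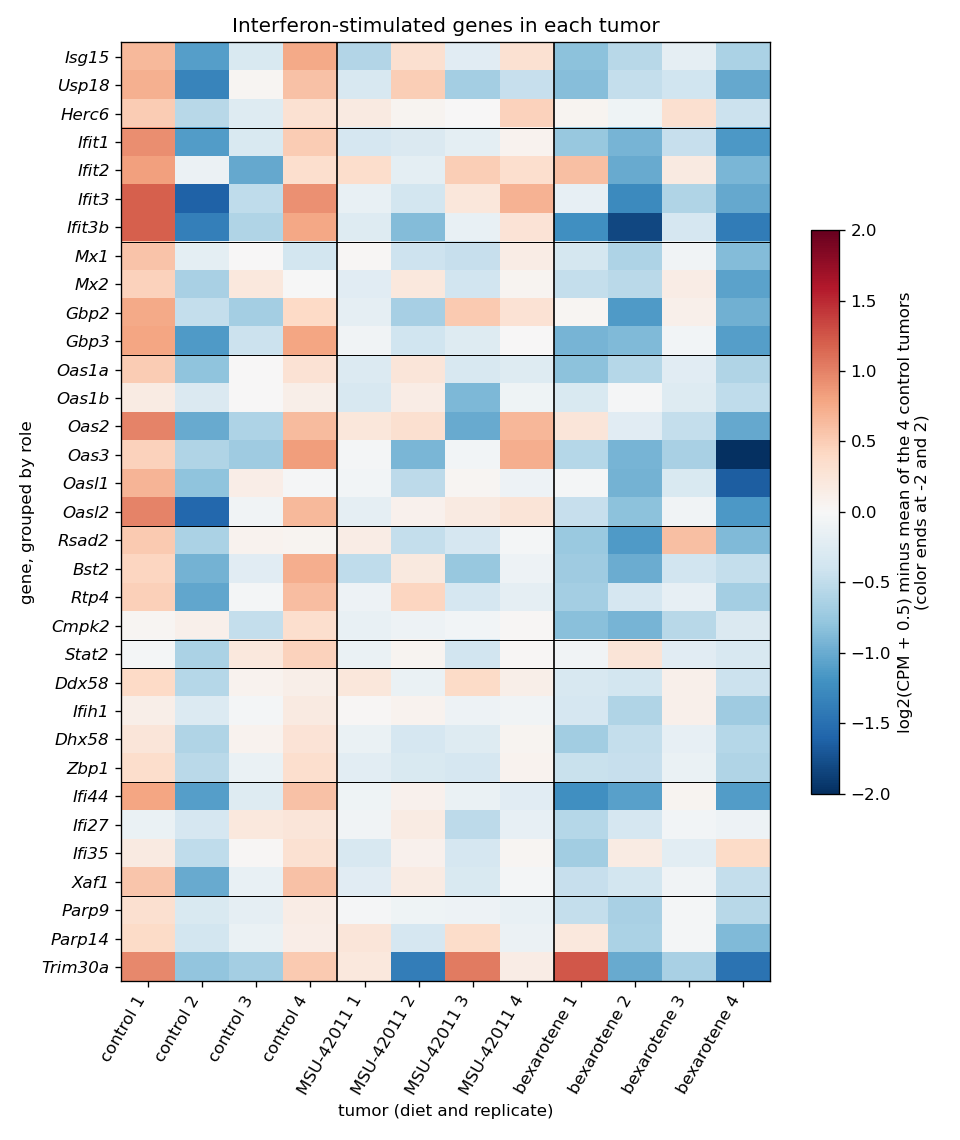
Each cell is the log2(CPM + 0.5) of 1 gene in 1 tumor minus the mean of the 4 control tumors, with red above and blue below, and black lines part the diets and the roles of the genes. Control tumors 1 and 4 are mostly red and control tumor 2 mostly blue, the 4 MSU-42011 tumors lie near 0 for most genes, and bexarotene tumors 1, 2 and 4 are mostly blue.

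Within the control group the SD of log2(CPM + 0.5) had a median of 0.61 over the members and 0.24 over all genes tested. With MSU-42011 these medians were 0.27 and 0.25, and with bexarotene 0.34 and 0.29. The control SD exceeded the MSU-42011 SD in 30 of 33 members, or 90.9%, and in 47.9% of all genes. It exceeded the bexarotene SD in 24 of 33 members, or 72.7%, and in 38.1% of all genes. All 4 MSU-42011 tumors lay within the control range for 27 members (81.8%), as they did for 21.9% of all genes, and all 4 bexarotene tumors lay within it for 11 members (33.3% against 15.4% of all genes). *Ifit3* had the widest control spread (SD 1.31) and *Ifih1* the narrowest (SD 0.20). No test of these spreads was made.

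**Figure D3:**
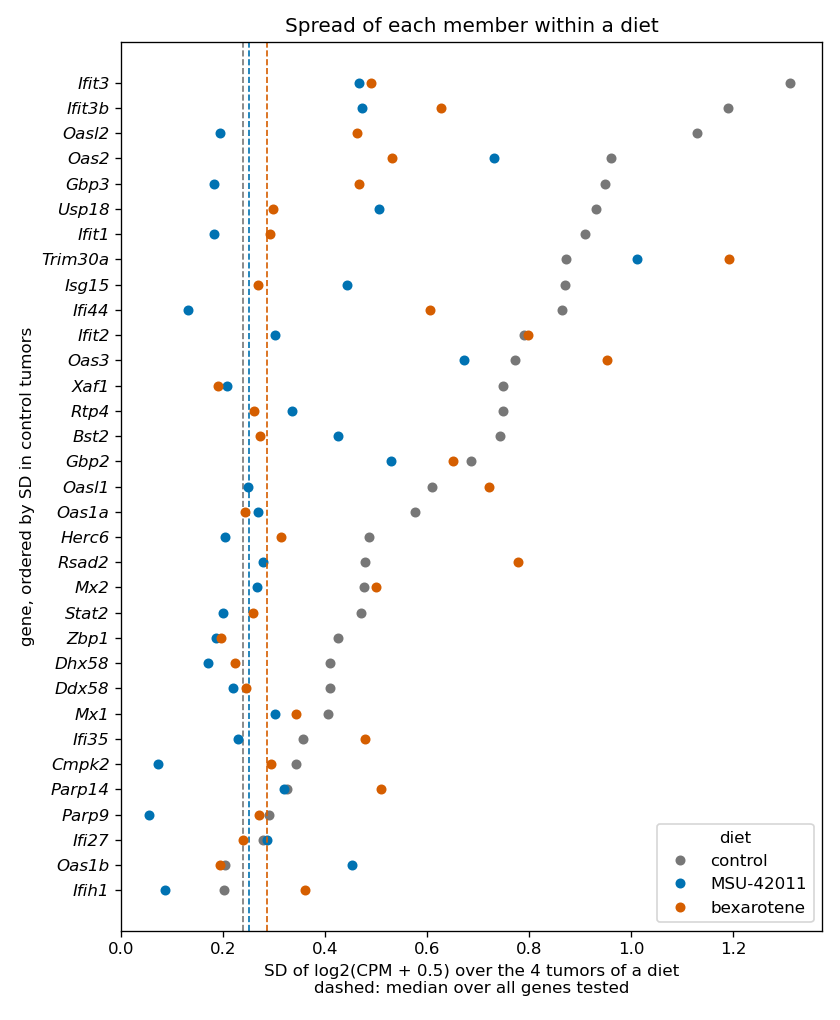
SD of log2(CPM + 0.5) over the 4 tumors of each diet for the 33 members, ordered by the control SD, with dashed lines at the median over all genes tested. The gray control points lie right of the blue MSU-42011 points in 30 of 33 members, and right of the bexarotene points in 24.

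Against control diet, the mean of every member was lower in the bexarotene tumors, and no member passed the test. The log2 fold change lay below 0 in 33 of 33 members, as it did in 44.7% of all genes tested, with a median of -0.51 against 0.030 over all genes and a range from -1.53 (*Ifit3b*) to -0.068 (*Ifi35*). In edgeR's quasi-likelihood test with Benjamini-Hochberg adjustment over all genes, 0 members were called at an adjusted p under 0.05, as were 0% of all genes, and the smallest adjusted p of a member was 0.762. At an unadjusted p under 0.05 the test gave 12 members, all lower, against 1.96% of all genes that were lower at that level. With limma on log2(FPKM + 1) there were 4 such members, where 523 of 15044 genes reached that level in either direction. *Herc6* then stood at 0.0022 rather than below 0. DESeq2 also called 0 members, with 15 at an unadjusted p under 0.05 and a smallest adjusted p of 0.187. Of all genes, DESeq2 called 6 at an adjusted p under 0.05, and 1389 of 29576 were at that unadjusted level, in either direction. In 0 members did the 4 bexarotene tumors all lie under the 4 control tumors, which 0.890% of all genes did.

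Single tumors moved these counts. Without control tumor 1, high in muscle markers, the median was -0.33. Then 1 member stayed lower at an unadjusted p under 0.05, against 1.43% of all genes. Without control tumor 4 the median was -0.42 with 3 members, against 1.72%. Without control tumor 2 the median was -0.68 with 21 members, against 1.47% of all genes lower at that level, and for 10 members the bexarotene tumors then all lay under the other 3 control tumors. With 3 control tumors the groups were apart, in either direction, in 4.06% of all genes. Without bexarotene tumor 1, the tumor rich in fibroblast markers, the median was -0.56 with 32 of 33 members below 0, against 48.9% of all genes, and 8 lower at an unadjusted p under 0.05, against 1.75%. Leaving out bexarotene tumor 2 or 4 left 5 members each, against 1.01% and 2.19% of all genes.

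The ISG15 system attaches the ubiquitin-like protein ISG15 to other proteins. *Isg15*, which encodes the modifier, stood at 44.7, 13.0, 22.8 and 48.0 CPM in control tumors 1 to 4, 18.6, 35.5, 24.1 and 35.0 CPM with MSU-42011 and 15.8, 19.1, 24.9 and 18.1 CPM with bexarotene. Control tumors 4 and 2 were the highest and the lowest of the 12, 3.69-fold apart, and the bexarotene tumors all lay between them. *Usp18* encodes the protease that removes ISG15 and also restrains the interferon receptor, and it was at 31.3, 7.24, 19.4 and 28.5 CPM in control tumors 1 to 4, 15.1, 26.7, 11.6 and 13.6 CPM with MSU-42011 and 10.3, 13.5, 14.2 and 9.07 CPM with bexarotene. *Herc6* encodes the mouse ligase for ISG15, and its values were 15.2, 7.05, 8.77 and 13.1 CPM in control tumors 1 to 4, 12, 11, 10.6 and 14.7 CPM with MSU-42011 and 11, 9.87, 13.3 and 7.72 CPM with bexarotene. The log2 fold change with bexarotene was -0.72 (SE 0.36, adjusted p = 0.801) for *Isg15*, -0.88 (SE 0.39, adjusted p = 0.77, unadjusted p = 0.0447) for *Usp18* and -0.071 (SE 0.25, adjusted p = 0.976) for *Herc6*. The mean of the ligase gene was 11, 12.1 and 10.5 CPM with control diet, MSU-42011 and bexarotene, while the other two genes had their highest values in control tumors 1 and 4.

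The IFIT proteins bind viral RNA ends and block its translation, and of the roles they had the lowest median log2 fold change with bexarotene (-1.08 over 4 genes). *Ifit1* was measured at 47.5, 11.1, 19.9 and 35.5 CPM in control tumors 1 to 4, 19.5, 20.1, 21.5 and 26 CPM with MSU-42011 and 14.5, 12.8, 17.9 and 10.9 CPM with bexarotene. All 4 MSU-42011 tumors exceeded all 4 bexarotene tumors, and control tumors lay on both sides. *Ifit3*, whose product stabilizes IFIT1, stood at 29.4, 3.74, 8.66 and 24.1 CPM in control tumors 1 to 4, 11.2, 9.57, 14.7 and 20.6 CPM with MSU-42011 and 11.1, 4.86, 8.09 and 5.89 CPM with bexarotene. Its near copy *Ifit3b* stood at 19.8, 2.94, 5.35 and 14.6 CPM in control tumors 1 to 4, 6.93, 4.36, 7.53 and 10.2 CPM with MSU-42011 and 3.28, 2.0, 6.54 and 2.88 CPM with bexarotene. The *Ifit3* transcripts share 31.7% of their stretches of 100 bases with *Ifit3b*, so how reads were divided between them is uncertain. *Ifit2* behaved otherwise, at 15.8, 7.95, 4.01 and 11.1 CPM in control tumors 1 to 4, 11.2, 7.51, 12.4 and 11.1 CPM with MSU-42011 and 13.5, 4.10, 9.98 and 4.41 CPM with bexarotene, with its lowest value in control tumor 3. Against control diet the bexarotene log2 fold changes were -1.02 (SE 0.35, adjusted p = 0.762, unadjusted p = 0.0131) for *Ifit1*, -1.13 (SE 0.53, adjusted p = 0.774) for *Ifit3*, -1.53 (SE 0.56, adjusted p = 0.762, unadjusted p = 0.0168) for *Ifit3b* and -0.28 (SE 0.44, adjusted p = 0.946) for *Ifit2*.

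**Figure D4:**
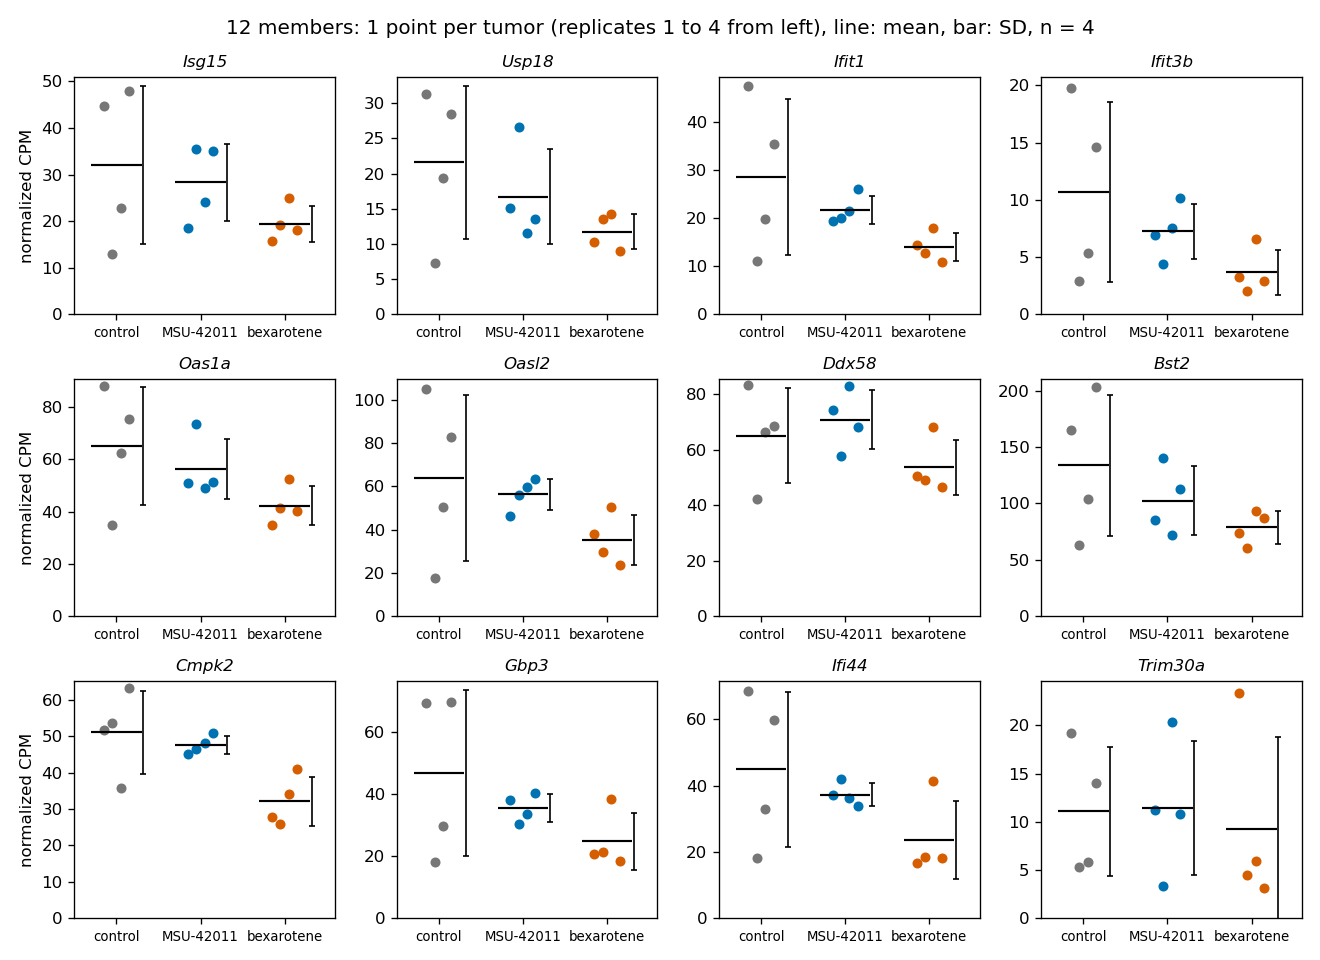
Normalized CPM of 12 members, with 1 point per tumor, a line at the mean and a bar of 1 SD (n = 4); the *Trim30a* bar with bexarotene is drawn only down to 0. For *Ifit1* and *Cmpk2* the 4 MSU-42011 points lie above the 4 bexarotene points, while the control points spread over both.

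The OAS enzymes make 2-5A, a signal that activates RNase L to degrade RNA. *Oas1a* was at 87.9, 34.9, 62.2 and 75.2 CPM in control tumors 1 to 4, 51.0, 73.3, 49.0 and 51.2 CPM with MSU-42011 and 34.7, 41.5, 52.4 and 40.2 CPM with bexarotene. It shares 40.9% of such stretches with *Oas1g*, so its count may hold reads of that copy. *Oas1b*, annotated as a polymorphic pseudogene, was at 17.4, 12.6, 15.6 and 16.9 CPM in control tumors 1 to 4, 12.3, 17.3, 8.07 and 14.6 CPM with MSU-42011 and 12.5, 15.2, 12.9 and 10.8 CPM with bexarotene, and the 3 groups overlapped. *Oas2* stood at 34.4, 8.24, 10.9 and 26.6 CPM in control tumors 1 to 4, 20, 21.3, 8.18 and 27.2 CPM with MSU-42011 and 20.3, 14.5, 12.1 and 8.09 CPM with bexarotene. *Oas3* was found at 5.22, 2.23, 2.03 and 6.90 CPM in control tumors 1 to 4, 3.52, 1.70, 3.47 and 6.37 CPM with MSU-42011 and 2.29, 1.67, 2.13 and 0.184 CPM with bexarotene. The *Oas3* value of bexarotene tumor 4 rests on 3 reads, at the limit of detection. *Oasl1*, a gene for an OAS-like protein without the enzyme activity, had 11.6, 3.83, 7.75 and 6.94 CPM in control tumors 1 to 4, 6.76, 4.73, 7.20 and 6.50 CPM with MSU-42011 and 6.86, 3.43, 5.62 and 1.90 CPM with bexarotene. *Oasl2* had 105, 17.5, 50.2 and 82.5 CPM in control tumors 1 to 4, 46.2, 56.0, 59.6 and 63.2 CPM with MSU-42011 and 38.0, 29.5, 50.2 and 23.6 CPM with bexarotene, and the control tumors alone spanned the range of all 12. The bexarotene log2 fold changes were -0.62 (SE 0.24, adjusted p = 0.762, unadjusted p = 0.0251) for *Oas1a*, -0.28 (SE 0.22, adjusted p = 0.892) for *Oas1b* and -0.54 (SE 0.47, adjusted p = 0.905) for *Oas2*. They were -1.37 (SE 0.63, adjusted p = 0.773) for *Oas3*, -0.75 (SE 0.40, adjusted p = 0.821) for *Oasl1* and -0.85 (SE 0.41, adjusted p = 0.8) for *Oasl2*. Of the 6 OAS genes, 1 was thus lower at an unadjusted p under 0.05.

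Mx proteins and guanylate-binding proteins are large GTPases that act on viruses and on vacuoles that hold microbes. *Mx1* was at 10.1, 5.73, 6.73 and 5.04 CPM in control tumors 1 to 4, 6.76, 4.91, 4.71 and 7.42 CPM with MSU-42011 and 5.13, 4.20, 6.34 and 3.43 CPM with bexarotene. *Mx2*, listed as a polymorphic pseudogene, was at 14.6, 6.49, 12.2 and 10.4 CPM in control tumors 1 to 4, 8.85, 12.2, 7.96 and 10.9 CPM with MSU-42011 and 7.38, 7.06, 11.7 and 4.72 CPM with bexarotene. In both genes control tumor 1 was highest and bexarotene tumor 4 lowest of all 12 tumors. *Gbp2* stood at 54.6, 23.0, 20 and 42.8 CPM in control tumors 1 to 4, 28.3, 20.1, 46.6 and 39.3 CPM with MSU-42011 and 33.2, 14.4, 34.6 and 16.3 CPM with bexarotene. *Gbp3* stood at 69.5, 18.0, 29.8 and 69.6 CPM in control tumors 1 to 4, 38.2, 30.3, 33.7 and 40.3 CPM with MSU-42011 and 20.8, 21.5, 38.5 and 18.5 CPM with bexarotene. For *Gbp3* bexarotene tumor 3 was apart from the other 3 and level with the MSU-42011 tumors. With bexarotene the log2 fold changes were -0.53 (SE 0.28, adjusted p = 0.824) for *Mx1*, -0.50 (SE 0.30, adjusted p = 0.858) for *Mx2*, -0.51 (SE 0.39, adjusted p = 0.89) for *Gbp2* and -0.91 (SE 0.38, adjusted p = 0.762, unadjusted p = 0.0334) for *Gbp3*.

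Of the effectors at membranes and in nucleotide metabolism, *Cmpk2* had the smallest p of the list. *Cmpk2* encodes a mitochondrial nucleotide kinase and lies beside *Rsad2* on chromosome 12. It was at 51.6, 53.7, 35.8 and 63.2 CPM in control tumors 1 to 4, 45.2, 46.5, 48.2 and 50.9 CPM with MSU-42011 and 27.7, 25.9, 34.0 and 40.9 CPM with bexarotene. Control tumor 3 fell among the bexarotene tumors and the other 3 control tumors lay above them all. Its log2 fold change with bexarotene was -0.67 (SE 0.18, adjusted p = 0.762, unadjusted p = 0.00239), with a 95% interval of -1.05 to -0.29, and ranked 13 among all genes by p, while the exact two-sided permutation test on 4 against 4 tumors gave p = 0.0571, where 0.0286 is the smallest possible.

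*Rsad2* encodes viperin, which makes a chain-terminating nucleotide, and its level was 16.9, 7.29, 12.2 and 12.1 CPM in control tumors 1 to 4, 12.9, 8.24, 9.15 and 11.3 CPM with MSU-42011 and 6.79, 5.01, 17.9 and 6.07 CPM with bexarotene. Bexarotene tumor 3 was the highest of all 12 tumors for *Rsad2* and the other 3 bexarotene tumors were the lowest. *Bst2* encodes tetherin, which holds budding virus at the cell surface, and it stood at 165, 63.2, 104 and 203 CPM in control tumors 1 to 4, 85.4, 140, 71.8 and 113 CPM with MSU-42011 and 74.2, 60.8, 93.0 and 87.5 CPM with bexarotene. *Rtp4*, a gene for a receptor transporter that is also induced by interferon, stood at 116, 40.2, 80.9 and 128 CPM in control tumors 1 to 4, 77.8, 113, 66.1 and 73.2 CPM with MSU-42011 and 51.7, 66.3, 74.4 and 51.9 CPM with bexarotene. In both genes control tumors 1 and 4 were high and control tumor 2 was as low as the bexarotene tumors or lower. Fold changes with bexarotene, on the log2 scale, were -0.44 (SE 0.39, adjusted p = 0.907) for *Rsad2*, -0.76 (SE 0.32, adjusted p = 0.762, unadjusted p = 0.033) for *Bst2* and -0.58 (SE 0.30, adjusted p = 0.814) for *Rtp4*.

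The sensors of foreign nucleic acid varied less. *Ddx58* encodes RIG-I, a sensor of viral RNA ends, and was at 83.4, 42.4, 66.3 and 68.5 CPM in control tumors 1 to 4, 74.3, 57.7, 83.0 and 68.4 CPM with MSU-42011 and 50.7, 49.0, 68.2 and 46.7 CPM with bexarotene. *Ifih1* encodes MDA5, a sensor of long double-stranded RNA, and was at 56.6, 42.9, 50.6 and 58.9 CPM in control tumors 1 to 4, 53.0, 54.6, 48.2 and 49.2 CPM with MSU-42011 and 40.8, 34.0, 55.6 and 31.5 CPM with bexarotene. In both genes bexarotene tumor 3 lay within the control range, and the other 3 bexarotene tumors lay under control tumors 1, 3 and 4. *Dhx58*, for the related helicase LGP2, stood at 35.2, 19.4, 31.2 and 36.1 CPM in control tumors 1 to 4, 26.9, 23.3, 24.8 and 30.7 CPM with MSU-42011 and 18.2, 21.1, 26.3 and 19.8 CPM with bexarotene. *Zbp1*, for a sensor of Z-form nucleic acids, stood at 56.4, 30.2, 40.5 and 55.9 CPM in control tumors 1 to 4, 38.2, 35.6, 35.0 and 46.6 CPM with MSU-42011 and 32.5, 32, 40.3 and 29.2 CPM with bexarotene. With bexarotene the log2 fold changes were -0.28 (SE 0.19, adjusted p = 0.881) for *Ddx58*, -0.37 (SE 0.17, adjusted p = 0.771, unadjusted p = 0.0469) for *Ifih1*, -0.51 (SE 0.19, adjusted p = 0.762, unadjusted p = 0.0198) for *Dhx58* and -0.45 (SE 0.19, adjusted p = 0.762, unadjusted p = 0.0365) for *Zbp1*. Of these 4 sensor genes, 3 were thus lower at an unadjusted p under 0.05. *Stat2*, the signal transducer of the list, was at 48.1, 31.7, 57.6 and 68.3 CPM in control tumors 1 to 4, 45.1, 51.3, 37.8 and 50.4 CPM with MSU-42011 and 47.0, 59.6, 42.1 and 39.4 CPM with bexarotene, with a log2 fold change of -0.13 (SE 0.21, adjusted p = 0.947).

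Among the other interferon-induced proteins, *Ifi44* stood at 68.7, 18.2, 33 and 59.8 CPM in control tumors 1 to 4, 37.3, 42.1, 36.2 and 33.8 CPM with MSU-42011 and 16.6, 18.5, 41.4 and 18.1 CPM with bexarotene. For *Ifi44* 3 bexarotene tumors were low together and the third replicate was near the MSU-42011 tumors. *Ifi27*, for a small interferon-induced membrane protein, had 347, 302, 441 and 452 CPM in control tumors 1 to 4, 361, 428, 265 and 338 CPM with MSU-42011 and 256, 301, 368 and 353 CPM with bexarotene. *Ifi35* had 52.2, 32.3, 46.7 and 57.1 CPM in control tumors 1 to 4, 36.7, 49.1, 36.3 and 47.2 CPM with MSU-42011 and 28.1, 51.7, 39.6 and 60.3 CPM with bexarotene, with bexarotene tumors at both ends of the 12. *Xaf1*, for a binding partner of the apoptosis inhibitor XIAP, had 39.6, 13.1, 24.1 and 40.6 CPM in control tumors 1 to 4, 22.7, 29.9, 21.5 and 26 CPM with MSU-42011 and 19.2, 20.6, 25.4 and 19.1 CPM with bexarotene. Against control diet bexarotene gave log2 fold changes of -0.93 (SE 0.38, adjusted p = 0.762, unadjusted p = 0.0324) for *Ifi44*, -0.27 (SE 0.18, adjusted p = 0.877) for *Ifi27*, -0.068 (SE 0.23, adjusted p = 0.975) for *Ifi35* and -0.48 (SE 0.29, adjusted p = 0.858) for *Xaf1*.

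*Parp9* and *Parp14* encode ADP-ribosyltransferase family proteins. *Parp9* was at 71.3, 45.9, 50.3 and 63.1 CPM in control tumors 1 to 4, 55.9, 53.3, 53.0 and 50.9 CPM with MSU-42011 and 40.7, 36.2, 55.5 and 38.6 CPM with bexarotene. It shares 458 exon bases, 9.40% of its length, with *Dtx3l* on the opposite strand, and whether counting used strand is not given in the sources used here. *Parp14* was at 52.4, 31.0, 36.5 and 43.9 CPM in control tumors 1 to 4, 47.5, 31.9, 51.9 and 36.9 CPM with MSU-42011 and 46.7, 25.8, 38.9 and 21.5 CPM with bexarotene. *Trim30a*, for a regulator of inflammatory signaling, was at 19.2, 5.35, 5.83 and 14.0 CPM in control tumors 1 to 4, 11.2, 3.39, 20.4 and 10.8 CPM with MSU-42011 and 23.4, 4.53, 5.96 and 3.13 CPM with bexarotene, and had the highest value of the 12 in bexarotene tumor 1. That tumor also had the highest summed macrophage markers, and their part in the *Trim30a* value was not tested. The bexarotene log2 fold changes were -0.43 (SE 0.16, adjusted p = 0.762, unadjusted p = 0.0185) for *Parp9*, -0.30 (SE 0.25, adjusted p = 0.899) for *Parp14* and -0.26 (SE 0.68, adjusted p = 0.97) for *Trim30a*.

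Against control diet, no member passed the test with MSU-42011 either, and the differences were smaller. The log2 fold change was below 0 in 28 of 33 members, against 49.7% of all genes, with a median of -0.18 against 0.0016 over all genes. With limma on log2(FPKM + 1) it was below 0 in 21 members. In edgeR 0 members were called, as were 0% of all genes, 0 had an unadjusted p under 0.05, and in 0 members were the groups apart. DESeq2 called 0 members and put 0 at an unadjusted p under 0.05. Of all genes, it called 1, and 471 of 29576 were at that unadjusted level, in either direction. The 5 members above 0 were *Herc6*, *Ddx58*, *Ifit2*, *Trim30a* and *Parp14*. The smallest unadjusted p values belonged to *Zbp1*, with a log2 fold change of -0.24 (SE 0.19, adjusted p = 1), *Bst2* with -0.38 (SE 0.32, adjusted p = 1), *Oas1b* with -0.26 (SE 0.22, adjusted p = 1) and *Ifit1* with -0.39 (SE 0.35, adjusted p = 1). Their 95% intervals reached from -0.65 to 0.18, from -1.07 to 0.30, from -0.73 to 0.22 and from -1.14 to 0.37, so changes of these sizes in either direction could not be told from 0. The median was 0.0051 without control tumor 1, -0.042 without control tumor 4 and -0.35 without control tumor 2. In the last case 7 members were lower at an unadjusted p under 0.05, against 0.743% of all genes.

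At the same dose and time, most members stood higher with MSU-42011 than with bexarotene, and again none passed the test. The log2 fold change of MSU-42011 against bexarotene was above 0 in 31 of 33 members, *Stat2* and *Ifi35* being the others, while 54.9% of all genes lay below 0. The median was 0.40, against -0.024 over all genes. In edgeR 0 members and 0% of all genes were called, and 1 member was higher at an unadjusted p under 0.05, against 0.819% of all genes. DESeq2 called 0 members, with 2 at an unadjusted p under 0.05 and a smallest adjusted p of 0.327. Of all genes, DESeq2 called 25 at an adjusted p under 0.05, and 926 of 29576 were at that unadjusted level, in either direction. This comparison shares its 4 bexarotene tumors with the one against control.

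In 2 members all 4 MSU-42011 tumors lay above all 4 bexarotene tumors, which 0.632% of all genes did. *Cmpk2* ran from 45.2 to 50.9 CPM with MSU-42011 and from 25.9 to 40.9 CPM with bexarotene, a log2 fold change of 0.57 (SE 0.18, adjusted p = 0.997, unadjusted p = 0.0068) with a 95% interval of 0.19 to 0.95. *Ifit1* ran from 19.5 to 26 CPM and from 10.9 to 17.9 CPM, a log2 fold change of 0.63 (SE 0.35, adjusted p = 0.997) with a 95% interval of -0.13 to 1.39. Any gene whose groups of 4 do not overlap has an exact two-sided permutation p of 0.0286, so that test adds nothing to the separation. The next smallest p values of the list belonged to *Ddx58* at 0.40 (SE 0.19, adjusted p = 0.997), *Ifih1* at 0.34 (SE 0.17, adjusted p = 0.997) and *Parp9* at 0.32 (SE 0.16, adjusted p = 0.997), with 95% intervals of -0.023 to 0.82, -0.023 to 0.70 and -0.027 to 0.66. Without bexarotene tumor 3 the groups were apart in 15 members, *Ifit1* and *Cmpk2* among them, against 4.9% of all genes in either direction. Without MSU-42011 tumor 2 they were apart in 6 members, against 5.57% of all genes. Without bexarotene tumor 1 they were apart in *Ifit1*, *Ifit3* and *Cmpk2*, against 3.39% of all genes. The log2 fold change was then above 0 in 31 of 33 members, as in 50% of all genes, with a median of 0.37, 0 members called and 3 higher at an unadjusted p under 0.05, against 1.59% of all genes.

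**Figure D5:**
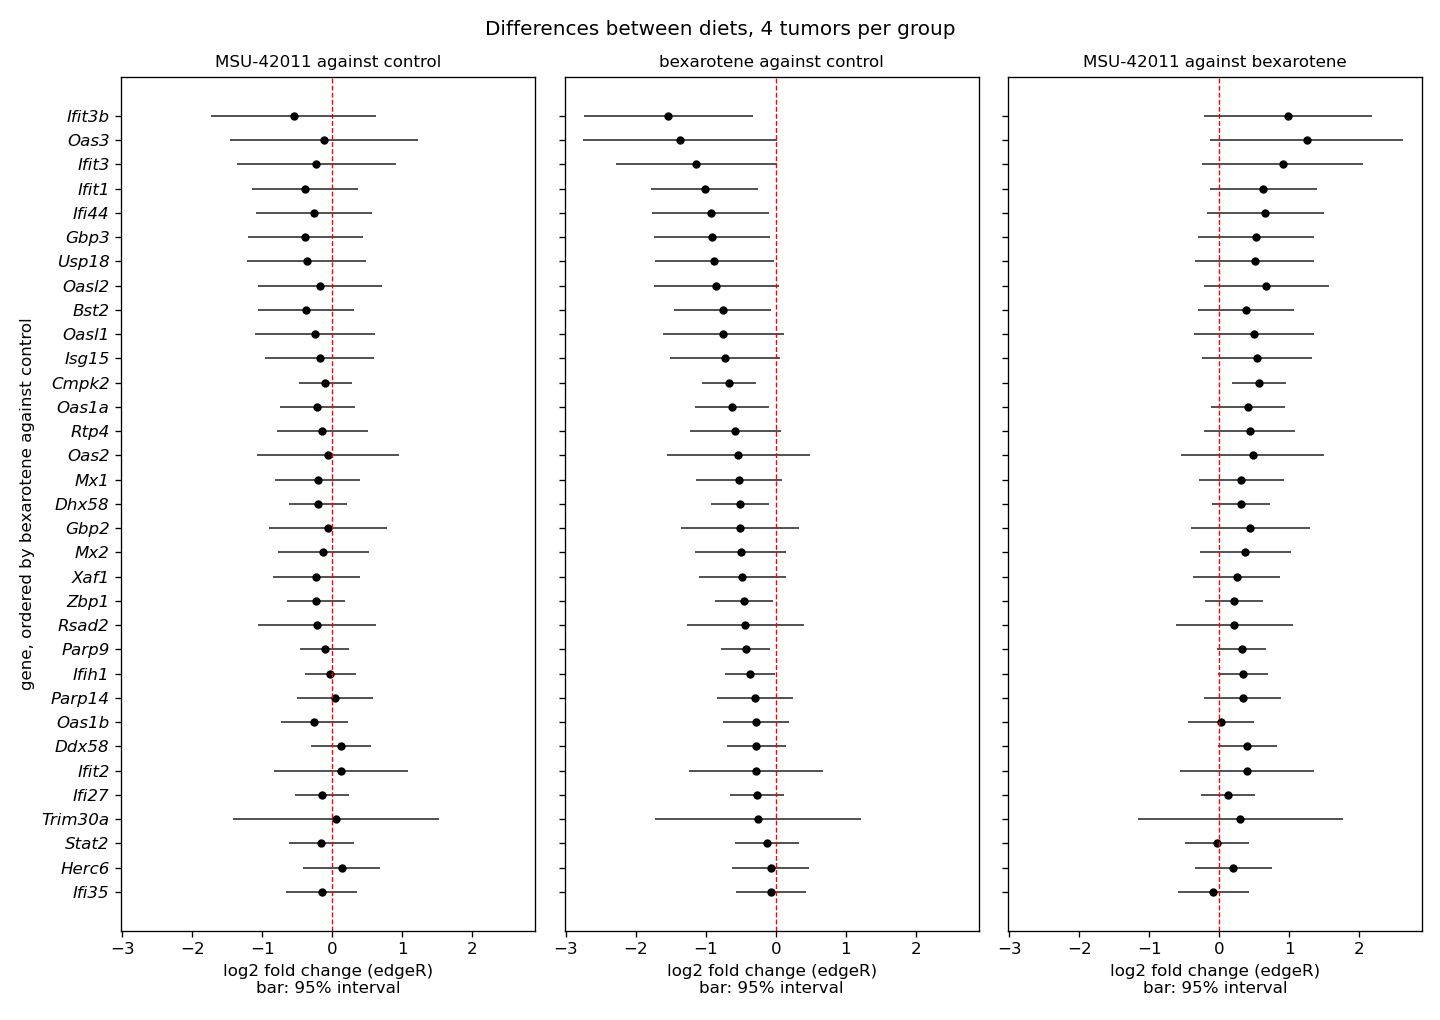
Log2 fold changes from edgeR with 95% intervals for the 33 members in the 3 comparisons, ordered by bexarotene against control, with a dashed line at 0. All points lie left of 0 in the middle panel and 31 of 33 lie right of it in the last, and most intervals cross 0.

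Over the 12 tumors the members varied together. Over the 528 pairs of members the Pearson correlation of log2(CPM + 0.5) had a median of 0.659 and ranged from -0.42 to 0.981, as a description over tumors that share diets and depth. *Ifit1* followed the median of the list most closely (r = 0.978), and *Ifi35* least (r = 0.253). Of the genes outside the list, the 10 whose levels were most like that median were *Ifit1bl2* (r = 0.934), *Irf7* (r = 0.932), *Ddx60* (r = 0.911), *Irgm1* (r = 0.910), *Irgm2* (r = 0.899), *Irf9* (r = 0.897), *Eif2ak2* (r = 0.886), *Lgals9* (r = 0.872), *Gm4951* (r = 0.864) and *Trim21* (r = 0.862). *Ifit1bl2* shares 3.29% of the stretches of 100 bases in *Ifit1* transcripts.

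Upstream of the members, interferon transcripts themselves were almost absent. Of 20 interferon genes listed, 16 had no read in any tumor, 0 were tested and 19 stayed at or under 3 reads in every tumor. *Ifng*, for interferon gamma, was the other one, at 0.356 CPM in control tumor 1 from 6 reads. Among 9 receptor and kinase genes, 0 were called in each comparison and the bexarotene median was -0.00060. *Il10rb*, a chain of the interferon lambda receptor, had the smallest p of these, with a log2 fold change of 0.34 (SE 0.13, adjusted p = 0.762) and all 4 bexarotene tumors above the control tumors. *Ifnlr1* stood at -0.42 (SE 0.23, adjusted p = 0.844) and *Ifnar2*, a chain of the type I receptor, at -0.14 (SE 0.11, adjusted p = 0.89).

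Of 7 interferon regulatory factors 0 were called in each comparison. *Irf7*, the factor that amplifies type I interferon, stood at 212, 61.5, 103 and 177 CPM in control tumors 1 to 4, 85.8, 133, 89.4 and 112 CPM with MSU-42011 and 53.4, 68.0, 91.8 and 62.2 CPM with bexarotene. It followed the members tumor by tumor, with control tumors 1 and 4 at the top. *Irf9*, the DNA-binding partner of STAT2, stood at 130, 81.0, 108 and 127 CPM in control tumors 1 to 4, 105, 119, 95.5 and 109 CPM with MSU-42011 and 78.5, 78.6, 93.3 and 87.2 CPM with bexarotene, and all 4 MSU-42011 tumors lay above all 4 bexarotene tumors. The bexarotene log2 fold changes against control were -1.01 (SE 0.32, adjusted p = 0.762) for *Irf7*, -0.40 (SE 0.14, adjusted p = 0.762) for *Irf9* and 1.06 (SE 0.48, adjusted p = 0.773) for *Irf5*. They were 0.50 (SE 0.44, adjusted p = 0.905) for *Irf8*, 0.14 (SE 0.17, adjusted p = 0.932) for *Irf3*, -0.085 (SE 0.15, adjusted p = 0.952) for *Irf1* and 0.057 (SE 0.10, adjusted p = 0.956) for *Irf2*. These factors lay on both sides of 0, with 3 below and 4 above, where 44.7% of all genes lay below 0. *Irf5* and *Irf8* had their highest bexarotene values in tumor 1, the tumor rich in fibroblast and leukocyte markers. Without it *Irf5* stood at 0.25 (SE 0.32), *Irf8* at -0.13 (SE 0.33), *Irf7* at -0.90 (SE 0.35) and *Irf9* at -0.37 (SE 0.16). Then 4 factors lay below 0 and 3 above, where 48.9% of all genes lay below 0.

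Among 11 genes of nucleic acid sensing 0 were called in each comparison, with a bexarotene median of -0.050. *Mb21d1*, for the DNA sensor cGAS, stood at 0.42 (SE 0.32, adjusted p = 0.89), *Tbk1* at 0.12 (SE 0.090, adjusted p = 0.89) and *Myd88* at -0.26 (SE 0.21, adjusted p = 0.896). Among 5 inhibitors of the response 0 were called, and *Ptpn6* stood at 0.18 (SE 0.10, adjusted p = 0.826), *Socs3* at 1.36 (SE 0.73, adjusted p = 0.827) and *Pias1* at -0.093 (SE 0.10, adjusted p = 0.93). With bexarotene 7 of the 11 sensing genes and 2 of the 5 inhibitors lay below 0, against 44.7% of all genes. The *Socs3* value rested on bexarotene tumor 1, at 33.8 CPM against 2.02 to 9.54 CPM in the other 3, and without it *Socs3* stood at 0.095 (SE 0.55). Without that tumor 8 of the 11 sensing genes (median -0.15) and 3 of the 5 inhibitors lay below 0. So did 6 of the 9 receptor and kinase genes (median -0.13), against 48.9% of all genes.

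Of 43 other interferon-stimulated genes listed, 38 were tested. Against control, 29 of the 38 lay below 0 with MSU-42011 (median -0.12), against 49.7% of all genes. With bexarotene 29 also lay below 0 and 9 above (median -0.29), against 44.7% of all genes below 0. In both comparisons 0 were called, and with bexarotene 5 were lower at an unadjusted p under 0.05, against 1.96% of all genes. Without bexarotene tumor 1, 35 of the 38 lay below 0 with bexarotene (median -0.36), against 48.9% of all genes. Then 3 were lower at that level, against 1.75% of all genes. The 3 genes of this list with the smallest p for bexarotene were *Uba7*, the activating enzyme of ISG15, the RNA editor *Adar* and *Parp10*. Their log2 fold changes were -0.54 (SE 0.20, adjusted p = 0.762), -0.34 (SE 0.13, adjusted p = 0.762) and -0.34 (SE 0.13, adjusted p = 0.762). Of 22 interferon gamma-inducible genes tested, 21 lay below 0 with bexarotene (median -0.56), against 44.7% of all genes, and 22 lay above 0 for MSU-42011 against bexarotene (median 0.41), against 45.1% of all genes, with 0 called. Without bexarotene tumor 1 these were 22 of 22 in both comparisons (medians -0.61 and 0.54), against 48.9% and 50% of all genes. *Iigp1*, an immunity-related GTPase, stood at -1.38 (SE 0.48, adjusted p = 0.762), *Irgm1* at -0.63 (SE 0.27, adjusted p = 0.762) and *Gbp8* at -2.73 (SE 1.16, adjusted p = 0.762). These lists hold genes of the same response, so they are no independent support for the members.

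Immune cell markers were set beside the members, because immune cells also make these transcripts. The 6 T cell markers tested lay below 0 in 6 of 6 with bexarotene (median -0.39, 0 called), against 44.7% of all genes. Without bexarotene tumor 1 they did so in 5 of 6 (median -0.41), against 48.9%. They summed to 5.40 to 11.3 CPM in control tumors, 5.91 to 11.8 CPM with MSU-42011 and 3.92 to 7.01 CPM with bexarotene. Some were scarce, with at most 20 reads in a tumor for *Cd3d* and 16 for *Cd8b1*. The direction of the 10 macrophage markers rested on bexarotene tumor 1, with 10 of 10 above 0 with bexarotene (median 0.83, 0 called), as in 55.3% of all genes, and 10 of 10 below 0 without that tumor (median -0.23, 0 called), as in 48.9% of all genes. They summed to 186 to 483, 207 to 511 and 221 to 1620 CPM, the last in bexarotene tumor 1. Without that tumor the bexarotene sums were 221 to 379 CPM. Markers of plasmacytoid dendritic cells, a rich source of type I interferon, summed to 2.27 to 7.75, 2.22 to 6.08 and 2.91 to 6.27 CPM. The highest sum, in control tumor 3, was mostly *Pacsin1* at 7 CPM. *Cox6a2* was at 2.47 CPM in bexarotene tumor 1 and 1.84 CPM in control tumor 1, and at most 0.145 CPM elsewhere. Those are the tumors high in skeletal muscle markers, and the part of muscle in these *Cox6a2* values was not tested. *Siglech* was at 2.31 CPM in control tumor 1 and had means of 1.02, 0.453 and 0.585 CPM with control diet, MSU-42011 and bexarotene. The 2 markers tested lay below 0 with bexarotene (median -0.55, 0 called), against 44.7% of all genes. They also lay below 0 with MSU-42011 against control diet (median -0.66, 0 called), against 49.7%. Without bexarotene tumor 1 they stayed below 0 with bexarotene (median -0.81), against 48.9%. The defining markers *Ncr1* of NK cells and *Cd79a* of B cells had no read in some tumors, and the NK cell list summed to at most 1.48 CPM and the B cell list to at most 2.44 CPM. The part of any cell type in the levels of the members was not tested. The mammary epithelial markers *Epcam*, *Krt8*, *Krt18*, *Cdh1* and *Erbb2* were detected in every tumor, as the tissue label gives, and *Krt19* was at 0 in some tumors.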

How the data were processed

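The authors deposited a read count and an FPKM value per gene and tumor for 12 MMTV-Neu mammary tumors, 4 per diet. The submitters' processing notes name STAR 2.6.1d, featureCounts 1.5.0-p3 and DESeq2, while the genome build and strand setting are not given in the sources used here. Coordinates of 33 of 33 members, and of 98.3% of genes shared with GENCODE M21, were those of GRCm38. The deposited FPKM equal the count divided by the library total and gene length, and the authors' comparison tables (fold changes and p-values) were not used. Totals ranged from 16583413 to 25925027 counts.

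The members and gene lists were chosen with earlier results of these data known, so no test was made of the list as a whole. Counts were tested with edgeR 4.0.16 (R 4.3.3) by quasi-likelihood F tests after TMM scaling and filterByExpr, with the 3 groups in 1 model and Benjamini-Hochberg adjustment over 15504 genes at 0.05. SE and 95% intervals come from the F statistic and its degrees of freedom. For single genes, log2(CPM + 0.5) was permuted exactly over all 35 splits of 4 against 4 tumors (two-sided). Alternatives were DESeq2 1.42.0, its size factors in edgeR, other filters, robust estimation, separate fits, a replicate block, limma 3.58.1 on log2(FPKM + 1) or log2(FPKM + 0.1), and leaving out each tumor. The scripts were tested on simulated data. Bexarotene fold changes were given for every member, and in the other comparisons for the 4 members with the smallest p and those whose groups did not overlap. Of the pathway lists, the interferon regulatory factors and up to 3 genes per other list with the smallest p for bexarotene were named, and the 10 genes most like the member median. Of the transcription factor list, 1 gene is not reported here.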

Additional observations from a re-analysis of the deposited data

Results flagged for a closer look

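In each member and diet, the tumor farthest from the other 3 was compared with Dixon's 95% critical value for 4 values. Of 99 groups tested, 5 passed it, and chance alone would flag about 1 in 20. Bexarotene tumor 3 stood above the other 3 bexarotene tumors for *Rsad2* at 17.9 CPM, for *Ifi44* at 41.4 CPM and for *Gbp3* at 38.5 CPM. *Trim30a* was at 23.4 CPM in bexarotene tumor 1, the tumor with the highest fibroblast and macrophage markers. *Oas1a* was at 73.3 CPM in MSU-42011 tumor 2, above the other 3 tumors of its diet.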

How the results depend on the processing

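In every alternative run, 0 members were called in each of the 3 comparisons. Leaving out 1 tumor moved the median log2 fold change between -0.35 and 0.0051 for MSU-42011 against control, between -0.69 and -0.33 for bexarotene against control and between 0.28 and 0.53 for MSU-42011 against bexarotene. It moved the members whose groups did not overlap between 0 and 1 for MSU-42011 against control. That 1 was *Dhx58* without control tumor 2, against 3.95% of all genes, and *Cmpk2* without control tumor 3, against 4.71%. For bexarotene against control the members numbered between 0 and 10 (without control tumor 2, against 4.06% of all genes). For MSU-42011 against bexarotene they numbered between 2 and 15 (without bexarotene tumor 3, against 4.9% of all genes). Members lower at an unadjusted p of less than 0.05 with bexarotene than with control diet numbered 12 in edgeR, 17 with no filter, 15 in DESeq2, 7 with these groups fitted alone, and 4, 4 and 3 in the limma fits on FPKM. In either direction, all genes at that level numbered 998 of 15504 in edgeR, 1866 of 29907 with no filter and 1389 of 29576 in DESeq2. They numbered 743 of 15079 with these groups fitted alone, and 523 of 15044, 545 of 15044 and 990 of 29907 in the limma fits. Leaving out control tumor 2 and bexarotene tumor 1 together gave 23 members, with 399 of 15421 genes at that level in either direction. For MSU-42011 against bexarotene, 10 members passed that level with the groups fitted alone, against 1. Of all genes, 413 of 15002 with the groups fitted alone and 612 of 15504 otherwise did so in either direction. With the limma fits *Herc6* stood at 0.0022, 0.0067 (pseudocount 0.1) and 0.0022 (no filter) for bexarotene against control, not below 0. Leaving out 1 tumor turned 5 members of that comparison. *Ifit2* ranged from -0.65 to 0.054, *Herc6* from -0.24 to 0.12, *Trim30a* from -1.29 to 0.13, *Stat2* from -0.31 to 0.038 and *Ifi35* from -0.25 to 0.10. The labels give no pairing of tumors by replicate number, and correlations with 4 tumors per group cannot decide it. Of 12 same-numbered pairs, 5 correlated above 0.1 (r from -0.39 to 0.38). With the replicate block the medians were -0.13, -0.52 and 0.42, 0 members were called, and the bexarotene count at that level was 7. Of all genes, 711 of 15504 were then at that level in either direction with bexarotene against control. *Oas3* was not tested with a minimum of 10 counts in every tumor. Depth limits *Oas3* and the interferon genes, near 3 reads.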
